A study of Mus musculus with 5 samples.

Results

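A set of 66 genes was defined by their levels in sorted hematopoietic stem cells (HSCs) of mice with and without Syncrip. A gene was taken into the set when its lowest value in the 3 control libraries was at least 100 normalized read counts and at least 2 times the higher of its values in the 2 knockout libraries. Of the 24046 gene symbols in the table, 9952 reached the floor of 100 in every control library and 68 of them met the whole rule, which is 0.683%. Syncrip, the targeted gene, and Clec5a, a myeloid surface receptor, also met it and were set aside, which left 66. The same values that chose these genes are given below, so their lower level in the knockout is a property of the selection and was not tested.

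Bulk RNA sequencing was performed on donor-derived HSCs, sorted as CD45.2+, Lin-, Sca1+, cKit+, CD150+ and CD48- cells from the bone marrow of CD45.1 congenic recipients. All donor marrow was Syncrip flox/flox, and the libraries came from Mx1 Cre- marrow (WT 1, WT 2 and WT 3) or Mx1 Cre+ marrow (KO 2 and KO 3). The harvest was at 9 weeks from transplantation, and 3 weeks after injection of polyinosinic:polycytidylic acid (pIpC), which was given to both groups, and libraries were prepared with a low-input SMART-Seq v4 kit. The Mx1 promoter is switched on by interferon and pIpC induces interferon, so all 5 libraries came from cells with a history of interferon exposure, and no library carried Cre without the floxed alleles. At transplantation, donors and recipients were 6 to 8 weeks old, the recipients were female and donors of both sexes were used. The study's methods describe the replicates of its experiments as biological, but whether a library came from 1 recipient or from a pool is not given for these libraries in the sources used here, so p-values measure the spread between these libraries.

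SYNCRIP is an RNA-binding protein of the hnRNP family that takes part in mRNA splicing, stability and translation. HSCs sit at the top of the blood hierarchy and give rise to all lineages, including the myeloid cells that carry most of the immune genes named below. Genes of the innate immune response, such as those of interleukin 1, its relatives and the myeloid lectin receptors, mostly have promoters with few CpG dinucleotides, whereas genes with general cellular tasks mostly start within CpG islands. Interleukin 1 beta and interferon are also known to act on HSCs themselves.

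The WT libraries held 21748781 to 22779536 reads, whereas KO 2 held 18308876 and KO 3 12539599. Syncrip itself was at 1944, 1440 and 1794 normalized read counts in WT 1, WT 2 and WT 3 and at 294 in KO 2 and 343 in KO 3. Of the HSC genes, Kit was between 8007 and 10741 over the 5 libraries. Slamf1, the gene of CD150, was between 195 and 522 and Ly6a, the gene of Sca1, between 279 and 857, so transcripts of these gate markers were present. The neutrophil granule genes Ngp, Ltf and Camp were more abundant than Kit in every library. Together 10 neutrophil markers took 4.19% to 5.07% of the reads in WT, 3.02% in KO 2 and 1.17% in KO 3.

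RefSeq promoters (GRCm38.p6, 250 bases before to 50 bases after the annotated start) were matched for 56 of the 66 genes. The 4 below are a cytokine and an enzyme with a TATA box at the usual distance from the start, a neutrophil collagenase with few CpG dinucleotides, and a deubiquitinase within a CpG-rich stretch. Each is written 5′ to 3′ on the strand of its gene, and capitals mark TATAAA or GGGCGG (the GC box) on either strand.
Il1b, chr2:129371090-129371389, minus strand: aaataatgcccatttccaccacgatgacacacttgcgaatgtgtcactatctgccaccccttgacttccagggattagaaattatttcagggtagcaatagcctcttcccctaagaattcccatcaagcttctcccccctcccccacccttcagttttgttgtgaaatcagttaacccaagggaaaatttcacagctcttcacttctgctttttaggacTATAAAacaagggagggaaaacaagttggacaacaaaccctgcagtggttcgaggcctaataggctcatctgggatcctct
Mgam, chr6:40628581-40628880, plus strand: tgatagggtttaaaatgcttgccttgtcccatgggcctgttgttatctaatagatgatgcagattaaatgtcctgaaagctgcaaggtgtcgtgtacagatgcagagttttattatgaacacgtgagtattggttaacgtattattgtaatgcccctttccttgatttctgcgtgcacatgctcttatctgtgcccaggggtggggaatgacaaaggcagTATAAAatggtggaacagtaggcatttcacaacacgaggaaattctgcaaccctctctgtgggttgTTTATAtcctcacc
Mmp8, chr9:7558179-7558478, plus strand: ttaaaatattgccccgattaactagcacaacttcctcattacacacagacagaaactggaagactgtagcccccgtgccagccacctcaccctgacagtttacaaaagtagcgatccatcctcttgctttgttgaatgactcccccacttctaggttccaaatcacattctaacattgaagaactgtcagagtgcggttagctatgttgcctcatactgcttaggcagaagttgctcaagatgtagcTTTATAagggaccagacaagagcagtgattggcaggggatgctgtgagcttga
Usp47, chr7:112023256-112023555, plus strand: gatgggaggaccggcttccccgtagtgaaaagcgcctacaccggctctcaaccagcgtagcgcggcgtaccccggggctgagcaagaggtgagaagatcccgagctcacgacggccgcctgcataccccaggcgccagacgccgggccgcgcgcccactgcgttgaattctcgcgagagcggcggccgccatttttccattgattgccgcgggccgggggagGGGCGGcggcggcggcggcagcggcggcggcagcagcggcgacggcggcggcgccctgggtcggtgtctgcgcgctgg

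The promoter of Il1b (interleukin 1 beta) held 3 CpG dinucleotides in its 300 bases, that of Mmp8 held 4 and that of Mgam 5, whereas that of Usp47 held 45. Of the 56 promoters, 28 (50%) held 5 or fewer CpG dinucleotides, against 7.78% of 8035 promoters of genes above the floor and 43.6% of all 27025 promoters. TATAAA on either strand was present in 12 of the 56 (21.4%), compared with 6.43% of promoters of genes above the floor and 14.2% of all promoters. On the strand of the gene and 40 to 20 bases before the start, it was found in 2 of the 56, Il1b at position -31 and Mgam at position -30, which is 3.57%, against 1.03% of promoters above the floor and 2.22% of all promoters. GGGCGG was present in 19 of the 56 (33.9%), against 66.7% above the floor and 35.9% of all promoters.

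The other motifs were also searched on both strands. GAGGAA, which is part of the site of the myeloid factor PU.1, was in 35.7% of the set, 26.6% of promoters above the floor and 28.3% of all. TGACTCA, the site of AP-1, was in 10.7%, against 3.31% and 5.17%, and CCGGAAG, an ETS site, was in 8.93%, against 21.0% and 9.12%. CCAAT, the box of NF-Y, was in 39.3% of the set and 39.5% of promoters above the floor. The E-box CACGTG was in 8.93% of the set and 11.2% of promoters above the floor. For TGACGT, part of the cyclic AMP response element, the shares were 10.7% and 13%. For AGATAA, bound by erythroid and mast cell factors, they were 10.7% and 6.26%. For TGTGGT, bound by the RUNX family, they were 16.1% and 12.1%. No motif of this search contains another, and a match describes the letters of the window, not a bound site.

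The 66 genes were placed in 8 groups by the known role of their products, and the placement was made after the values had been seen. Among the 4 groups with inflammatory, receptor, extracellular or innate sensing roles, 23 of 27 matched promoters held 5 or fewer CpG dinucleotides, with a median of 2. Among the 4 groups with signalling, traffic, nuclear or metabolic roles, it was 5 of 29, with a median of 19. TATAAA was found in 11 of those 27 promoters and in 1 of those 29, that of Aldh1a7. Among the 27, the promoter of Adamts3, an extracellular protease, held the most CpG dinucleotides, 41.

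**Figure D1:**
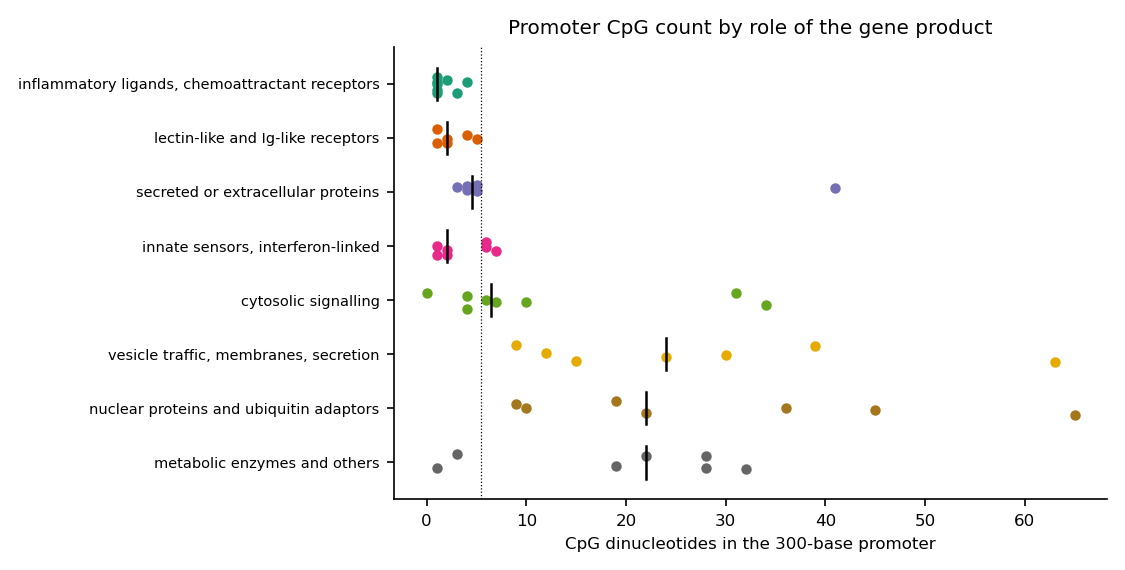
CpG dinucleotides (horizontal axis, number per 300-base promoter) for the 56 matched genes, 1 point per gene, in the 8 role groups (vertical axis, points spread at random within a row). Bars mark group medians and the dotted line separates promoters with 5 or fewer CpG dinucleotides, where all 14 matched promoters of the inflammatory and surface receptor groups sit.

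WT means of the 66 genes ranged from 130.3 to 6186 normalized read counts, not divided by transcript length, with a median of 434 against 979 for all genes above the floor. The KO mean was 13.6% to 47.2% of the WT mean, with a median of 30.8%. The gap between the lowest WT and the highest KO library, which the rule used, ranged from 2.00 to 5.31 times with a median of 2.24, and it was 3 or more in 8 genes and below 2.2 in 29. Among WT libraries the highest value was 1.01 to 2.01 times the lowest, with a median of 1.36, close to the 1.30 of all genes above the floor. Together the set took 0.273%, 0.248% and 0.275% of the reads of WT 1, WT 2 and WT 3, and 0.102% and 0.0673% of those of KO 2 and KO 3. In bulk samples like these, fewer cells of a type and less RNA per cell cannot be told apart.

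**Figure D2:**
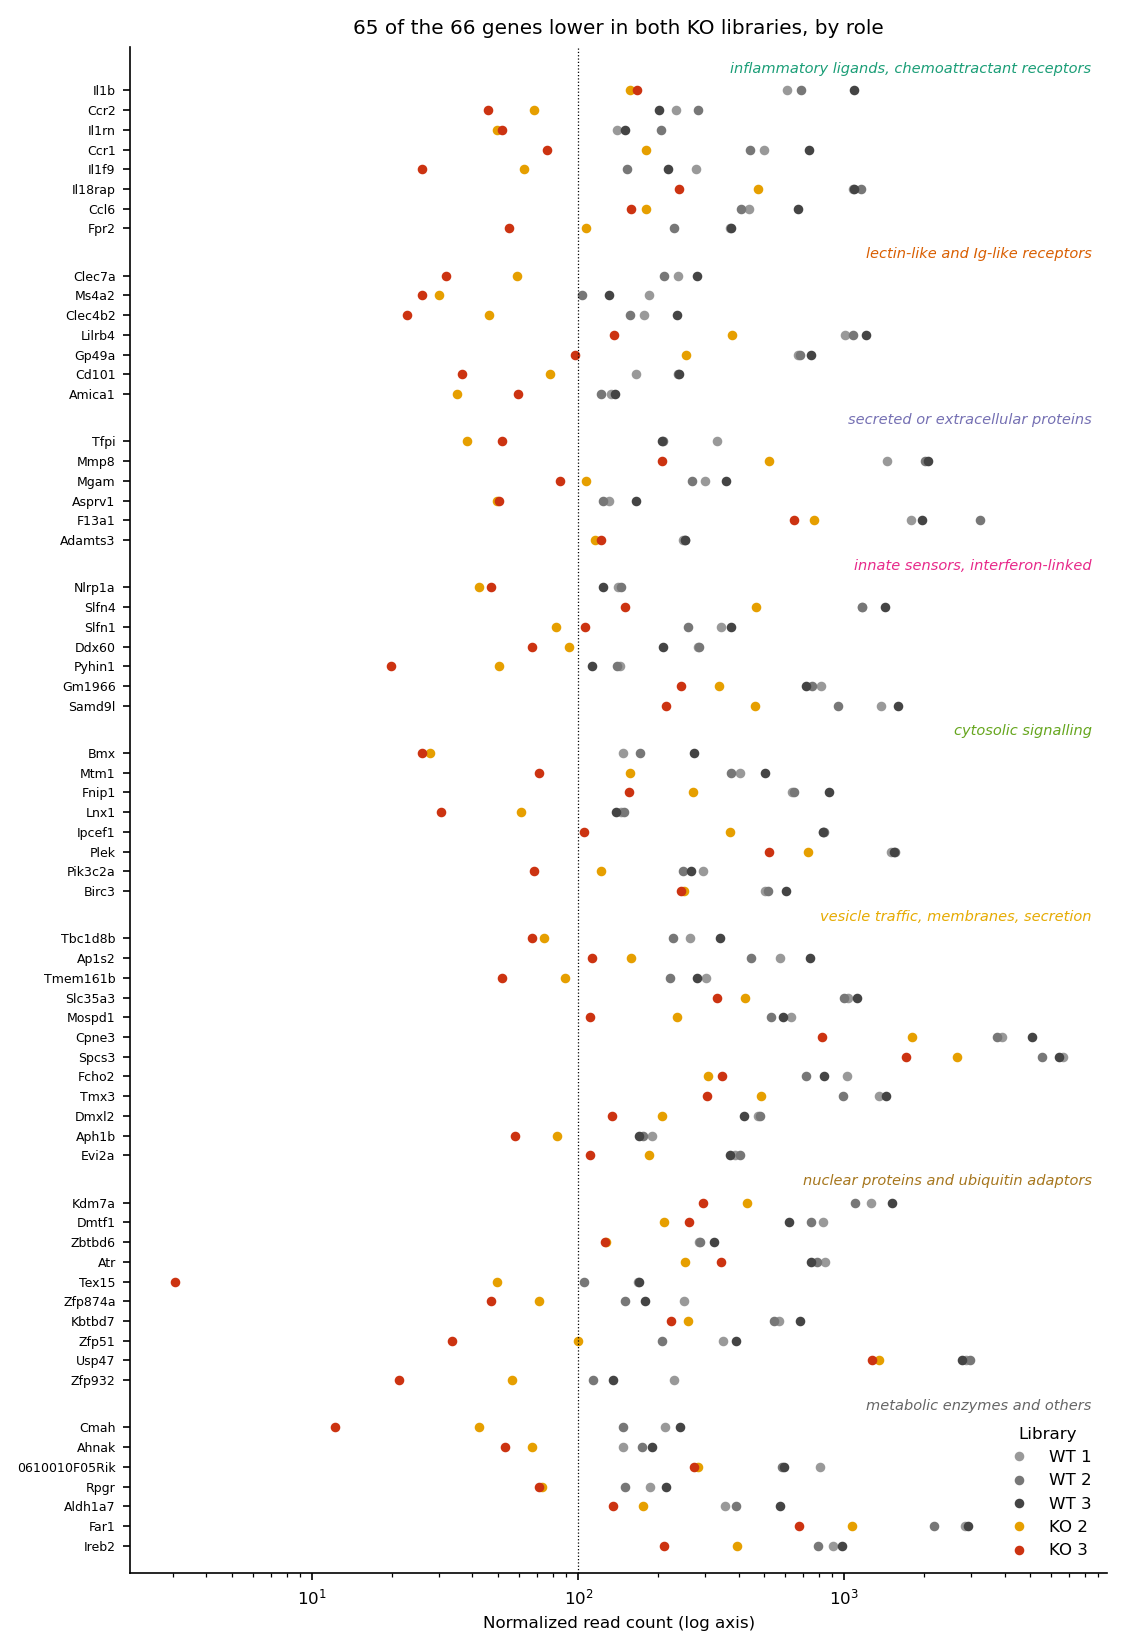
Normalized read count (horizontal log axis) of 65 of the 66 genes (rows, grouped by role and ordered by gap) in the 5 libraries, with grey points for WT and coloured points for KO. By the rule, both coloured points lie left of all grey ones in every row, from a gap of 5.31 times for Bmx to 2.00 times for Evi2a, and the dotted line marks the floor of 100.

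Genes of interleukin 1 signalling and of chemotaxis formed the first group, with 8 members. Il1b, the inflammatory cytokine interleukin 1 beta (chromosome 2, 129364570 to 129371139, minus strand, GRCm38), was at 610.2, 687 and 1090.0 in WT 1, WT 2 and WT 3 and at 156 and 166 in KO 2 and KO 3. Its KO mean was 161 ± 6.57 (SD, n = 2) and its WT mean 796 ± 258 (SD, n = 3), so the KO libraries lay close together and below all WT libraries. An annotated antisense gene, Il1bos, overlaps it. Il1rn, the natural antagonist of the interleukin 1 receptor, behaved alike in that KO 2 (49.3) and KO 3 (51.6) nearly coincided, below WT values of 139.9, 204 and 149. Il1f9, which encodes interleukin 36 gamma, was at 276, 153 and 218 in WT and at 62.7 and 25.8 in KO, so that KO 3 was the lowest library. Il18rap, the accessory chain of the interleukin 18 receptor, was nearly level across WT (1081, 1154 and 1091) and at 473 and 238 in KO.

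The chemoattractant genes all had KO 3 below KO 2, as did Il1f9 and Il18rap but not Il1b and Il1rn. Ccr2, the receptor that draws monocytes towards CCL2, was at 232, 281 and 201 in WT and at 67.8 and 45.6 in KO. Ccr1, a receptor for several inflammatory chemokines, was at 498, 440.0 and 738 in WT and at 179.9 and 75.9 in KO. Ccl6, a CC chemokine of myeloid cells, kept the most of its WT level in this group (33.5%), with 436, 407 and 671 in WT and 179.9 and 158 in KO. Fpr2, a receptor for formylated bacterial peptides, was at 372, 229 and 374 in WT and at 107 and 54.7 in KO, and 37.2% of its transcript's 50-base words also occur in other annotated genes, mainly Gm5966, so its reads could have been split.

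Myeloid surface receptors of the lectin and immunoglobulin families made up 7 genes. Clec7a, which encodes the beta-glucan receptor dectin-1 (chromosome 6, 129461591 to 129472779, minus strand, GRCm38), was at 237, 209 and 279 in WT and at 58.6 and 31.9 in KO. Clec4b2, another C-type lectin receptor, was at 176 (WT 1), 156 (WT 2), 236 (WT 3), 46.3 (KO 2) and 22.8 (KO 3). The lectin genes were alike in both KO libraries, with 24.2% and 24.4% of the WT mean in KO 2 and 13.2% and 12% in KO 3. Ms4a2, the beta chain of the high-affinity IgE receptor of mast cells and basophils, was at 185, 103 and 130.3 in WT and at 29.8 and 25.8 in KO, the smallest WT minimum of the set. The summed share of mast cell and basophil markers was also uneven within WT, from 0.00386% to 0.0203%, and was 0.0034% in KO 2 and 0.0235% in KO 3, and its part in the level of Ms4a2 was not tested.

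Lilrb4, an inhibitory receptor of myeloid cells, was at 1005, 1079 and 1201 in WT and at 379 and 137 in KO. Gp49a, its neighbour and close relative, was at 670.2, 679 and 749.8 in WT and at 255 and 97.2 in KO. The values of the pair moved in parallel, but their transcripts share sequence, 43.5% of the 50-base words of Lilrb4 and 20.2% of those of Gp49a being found in other genes, so part of their reads could have been split between them or with other genes. Cd101, an immunoglobulin-family receptor of myeloid cells, was at 165, 238 and 239 in WT and at 78.1 and 36.4 in KO. Amica1, which encodes the junctional adhesion protein JAML, was the exception to the order of the KO libraries, with 132, 122 and 137 in WT, 35.0 in KO 2 and 59.2 in KO 3.

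Extracellular enzymes, their inhibitors and clotting proteins contributed 6 genes. Mmp8, the neutrophil collagenase (chromosome 9, 7558456 to 7568485, plus strand, GRCm38), was at 1447, 2013 and 2058 in WT and at 521 and 207 in KO, and it was the only gene of the set on the fixed neutrophil marker list. F13a1, the catalytic subunit of clotting factor XIII, was at 1785, 3234 and 1954 in WT and at 767 and 645 in KO, so WT 2 stood above the other controls. Tfpi, the inhibitor of tissue factor that restrains the start of clotting, was at 333, 208 and 207 in WT and had, after Bmx, the largest gap of the set (4.0), with 38.0 in KO 2 and 51.6 in KO 3. F13a1 was thus lowest in KO 3 and Tfpi in KO 2. Mgam, a maltase of the cell surface, was at 299, 268 and 360 in WT and at 107 and 85.0 in KO. Asprv1, an aspartic protease, was at 129.9, 124 and 165 in WT and at 49.3 and 50.1 in KO. Adamts3, a metalloprotease that processes procollagen, had nearly equal WT values (248, 253 and 252) and kept the most of any gene in the set, 47.2%, with 115 and 121 in KO.

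Innate sensors and interferon-linked proteins made up 7 genes. Slfn4, a Schlafen gene of the myeloid lineage, was at 1164, 1166 and 1417 in WT and at 464 and 150.4 in KO. Slfn1, a relative 52516 bases away, was at 344, 258 and 376 in WT, but here KO 3 (106) was above KO 2 (82.2). Samd9l, an interferon-inducible restrictor of cell growth and viruses, was at 1368, 949 and 1585 in WT and at 459 and 214 in KO. Of these genes, Slfn4 and Samd9l were lowest in KO 3 and Slfn1 in KO 2. Ddx60, an RNA helicase of the antiviral response, was at 281, 285 and 208 in WT and at 92.5 and 66.8 in KO. Nlrp1a, an inflammasome sensor, was at 141, 145 and 124 in WT and at 42.1 and 47.1 in KO, one of the more even genes.

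Pyhin1, a member of the interferon-inducible PYHIN family that GENCODE M21 lists as Ifi209, was at 143, 139.7 and 112 in WT and at 50.4 and 19.7 in KO. Gm1966, annotated as an unprocessed pseudogene related to the very large interferon-inducible GTPases, was at 813, 755 and 717 in WT and at 339 and 243 in KO. Both share sequence with relatives, 35.1% of the 50-base words of Pyhin1 and 17.5% of those of Gm1966. The fixed list of classical interferon-stimulated genes held none of the 66. Of its 22 genes above the floor, 7 (31.8%) had both KO values below all WT values and 2 had both above, beside 27.2% of all genes above the floor with both below.

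Cytosolic signalling proteins accounted for 8 genes, and Bmx had the largest gap of all 66. Bmx, a Tec-family tyrosine kinase (chromosome X, 164192842 to 164258193, minus strand, GRCm38), was at 147, 170.1 and 273 in WT and at 27.8 and 25.8 in KO, values that rest on 27 and 17 reads in KO 2 and KO 3. Its WT mean was 197 ± 66.7 (SD, n = 3) and its KO mean 26.8 ± 1.37 (SD, n = 2). Both KO libraries were thus near 13.6% of WT, with almost no spread between them.

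Plek, which encodes the protein kinase C substrate pleckstrin, was nearly constant across WT (1503, 1545 and 1539) and at 732 and 522 in KO. Ipcef1, a partner of the Arf exchange factor cytohesin, had the tightest WT values of the set (831, 840.1 and 828) but a wide split in KO, 373 against 105. Birc3, an inhibitor of apoptosis in NF-kappa-B signalling, was the opposite, with 502, 515 and 602 in WT and 249 and 243 in KO. The phosphoinositide enzymes Pik3c2a (a class II lipid kinase) and Mtm1 (the phosphatase myotubularin) were at 45.1% and 36.5% of their WT means in KO 2 and at 25.4% and 16.7% in KO 3. The folliculin partner Fnip1 kept 37.5% (KO 2) and 21.5% (KO 3) of its WT mean, and the ubiquitin ligase Lnx1 stood at 42.2% and 21.1%.

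The largest group, 13 genes, served vesicle traffic, membranes and the secretory pathway. Spcs3, a subunit of the signal peptidase complex that trims secreted proteins, was at 6613, 5516 and 6431 in WT and at 2646 and 1712 in KO. Cpne3, a calcium-dependent phospholipid-binding copine, was at 3930, 3744 and 5053 in WT and at 1792 and 823 in KO. Both genes had at least 542 reads in every library, and their KO 2 value was above their KO 3 value. Tmx3, a disulfide isomerase of the endoplasmic reticulum, was at 1352, 989 and 1437 in WT and at 486 and 304 in KO. Slc35a3, the Golgi transporter of UDP-N-acetylglucosamine, was at 1033, 998 and 1114 in WT and at 425 and 333 in KO.

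Tbc1d8b, a Rab GTPase-activating protein, had the largest gap in this group (3.07), with 263, 227 and 342 in WT and 74.0 and 66.8 in KO. Ap1s2, the small subunit of the clathrin adaptor AP-1, followed with 572, 447 and 741 in WT and 158 and 112 in KO. Other members were Fcho2, which starts clathrin-coated pits, Dmxl2, a regulator of the proton pump of endosomes, the gamma-secretase subunit Aph1b, and Mospd1, Tmem161b and Evi2a, which were at 33.5% to 47.7% of their WT means in KO 2 and at 19.1% to 40.4% in KO 3. Fcho2 was the only 1 of the 13 with KO 3 (348) above KO 2 (308). Evi2a lies within an intron of Nf1 on the opposite strand and the strand setting of the counting is not given in the sources used here, so its reads cannot be told apart from those of Nf1. It also overlaps Evi2 on its own strand, where 15.5% of its 50-base words occur, so reads could have been split between these as well.

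Nuclear proteins and ubiquitin adaptors comprised 10 genes. Kdm7a, a histone demethylase, was at 1265, 1095 and 1507 in WT and at 429 and 295 in KO. Usp47, a deubiquitinase, was among the most even genes of the set, with 2862, 2979 and 2766 in WT and 1353 and 1270 in KO (45.7% of WT). Atr, the checkpoint kinase of stalled replication forks, was at 845, 792 and 751 in WT, and its KO 3 value (343) was above its KO 2 value (252). Dmtf1, a Myb-like transcription factor, showed the same order, with 211 in KO 2 and 260 in KO 3 below WT values of 834, 747 and 618.

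Kbtbd7 and Zbtbd6 (listed as Kbtbd6 in GENCODE M21), which are substrate adaptors of cullin ubiquitin ligases, lie 20799 bases apart and share sequence, and they were at 43.3% and 42.7% of their WT means in KO 2 and at 37.3% and 42.2% in KO 3. Among the zinc finger genes, Zfp51 was at 31.5% of its WT mean in KO 2 and 10.6% in KO 3. Zfp932 was at 35.6% and 13.4%, so both were more than 2 times higher in KO 2 than in KO 3, and Zfp874a was closer, at 36.9% and 24.5%. For Zfp932, 45.2% of the 50-base words occur in other genes, the largest share in the set. Tex15, a gene known from meiotic recombination in germ cells, was at 168, 105 and 169 in WT, at 49.3 in KO 2 and at 3.04 in KO 3, the last from 2 reads. That count is below the floor of 3 reads taken for detection, so the split between the KO libraries is imprecise.

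The remaining 7 genes were metabolic enzymes and others. Cmah, the enzyme that hydroxylates sialic acid, was at 212, 148 and 241 in WT, at 42.1 in KO 2 and at 12.1 in KO 3, and at 13.6% its KO mean was, with that of Bmx, the lowest share of WT in the set. Far1, a fatty acyl-CoA reductase that supplies ether lipids, was at 2847, 2181 and 2926 in WT and at 1072 and 674 in KO. Ireb2, the iron regulatory protein that binds iron-responsive elements, was at 905, 797 and 978 in WT and at 396 and 209.6 in KO. Aldh1a7, an aldehyde dehydrogenase, and Ahnak, a giant scaffold protein, were at 39.8% and 39.3% of their WT means in KO 2 and at 30.8% and 31.3% in KO 3. Rpgr, a protein of the cilium, and 0610010F05Rik were nearly even, at 39.8% and 42.8% in KO 2 and at 38.9% and 41.1% in KO 3.

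The genes closest to the limits show how much the set depends on where they were drawn. Just inside the gap were Evi2a (2.00), Zfp932 (2.01), Ireb2 (2.01), Birc3 (2.02) and Aph1b (2.03). Just outside were Tspan2 and Cd44 (both 2.00 after rounding), Gmfb (also 2.00), Fos (1.99) and Tab3 (1.98). At the floor, Ms4a2, Tex15 and Pyhin1 were just inside, with lowest WT values of 103, 105 and 112, and Cd300ld, Trim30d and Eif5a2 just outside, with 96.6, 93.4 and 90.8. A further 195 genes met the gap under the floor of 100 and were not included.

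KO 2 and KO 3 did not contribute equally. Relative to WT, the median level was 36.1% for KO 2 and 24.1% for KO 3, and KO 3 was the lower library in 55 of the 66 genes (83.3%), against 52.4% of all genes above the floor. Over those 9952 genes KO 3 was the extreme library in both directions, the lowest of the 5 in 3783 and the highest in 3416. KO 2 was at least 2 times KO 3 in 18 of the 66 genes, whose KO mean was over 1.5 times lower without KO 2, and the libraries lay within 1.2 times of each other in another 17. The widest splits towards KO 3 were in Tex15, Ipcef1 and Cmah. KO 3 was above KO 2 in 11 genes, most of all in Amica1, Atr and Tfpi. In the 4 groups with immune or extracellular roles, KO 3 was lower in 20 of 28 genes, and in the other 4 groups in 35 of 38. The rule was set by the higher of the KO values, so for most members it was KO 2 that decided whether the gene was taken. KO 2 stood apart in the 8 fixed adipocyte markers, which together took 0.132% of its reads against 0.000694% to 0.00353% in the other libraries. Other transcripts of fat were not summed. The brown fat gene Ucp1 was at 5622 in KO 2 and listed at 0 elsewhere. The part of this in the levels of the 66 genes was not tested. Without KO 2, the rule took 890 genes, the 66 necessarily among them, and without KO 3 it took 93.

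**Figure D3:**
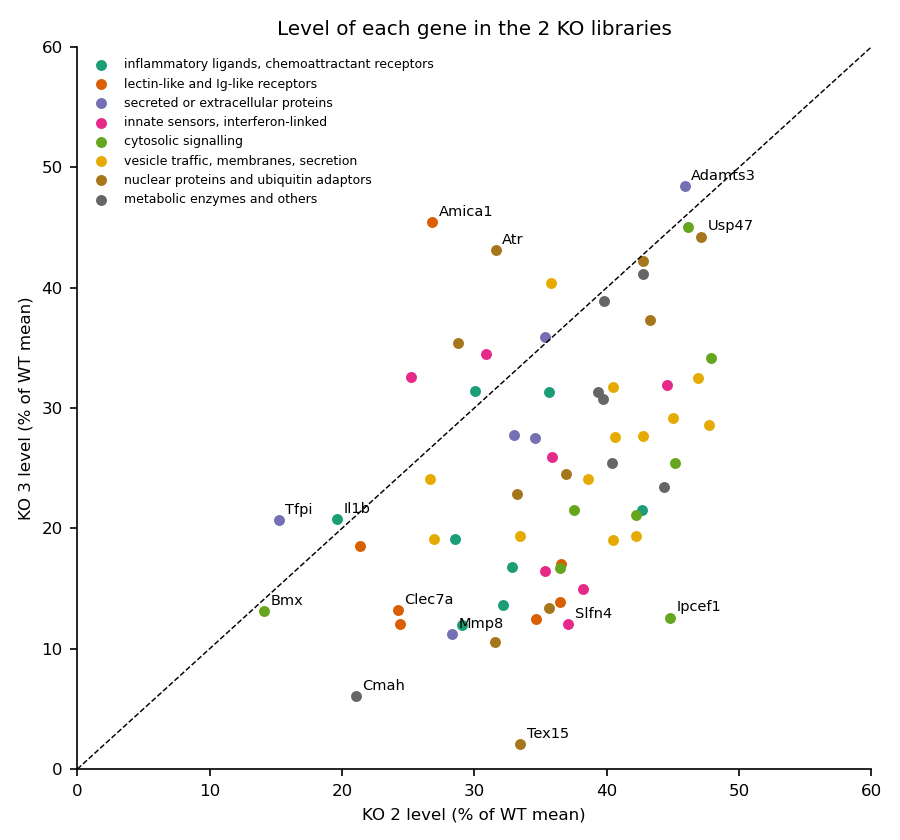
Level of each of the 66 genes in KO 2 (horizontal axis, % of the WT mean) and KO 3 (vertical axis, % of the WT mean), coloured by role, with the dashed line of equal levels. The 55 genes below the line were lower in KO 3, and Bmx, Il1b and Usp47 lie close to it.

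Several of the genes are neighbours or share sequence. More than 10% of the 50-base words of 13 members occur in other genes, and 23 members overlap another annotated gene. Of the 66, 17 lay within 1 Mb of another member. Gp49a and Lilrb4 are 4253 bases apart, Ccr1 and Ccr2 133258 bases, Il1rn and Il1f9 143285 bases, Mmp8 and Birc3 280214 bases, and Ccl6 and Slfn4 397666 bases. By chromosome, 9 genes were on chromosome 9, 8 on chromosome 11 and 7 on chromosome X. The 7 on chromosome X, among them Mtm1, Rpgr, Tbc1d8b, Bmx, Mospd1 and Ap1s2, were 10.6% of the set, whereas 2.87% of all genes above the floor were on chromosome X. Over all 284 X-linked genes above the floor, the median log2 ratio to WT was -0.25 for KO 2 and -0.63 for KO 3, against -0.01 and -0.05 for all genes above the floor, and their median GC content was 45.7%. Xist, the RNA that coats the inactive X chromosome, was at 2784, 1941 and 2292 in WT and at 1733 and 831 in KO. The part of GC content and of the donors' sex, which is not given per library, in the X-linked levels was not tested.

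The transcripts of the set were poor in G and C. Their median GC content was 41.5%, against 49.7% for genes above the floor, each read from the longest GENCODE M21 transcript. GC content was below 45% in 50 of the 66 (75.8%), compared with 25.8% of genes above the floor. It was lowest in Tmx3 (35.3%) and Ap1s2 (35.4%) and highest in Asprv1 (54.6%), Cd101 (53.3%) and Lnx1 (51.1%). The median content of A was 29.6%, against 25.2%, and that of T 28.3%, against 25%. The pentamer ATTTA, the core of AU-rich elements, occurred at a median of 1.66 per kilobase, against 0.87, along the whole transcript. The median transcript was 3963 bases long, against 3396.

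This composition has to be read against a trend across all genes in the KO libraries. When the genes above the floor were divided into 5 equal bins by GC content, the median log2 ratio of KO 2 to WT went from -0.46 in the lowest bin to 0.35 in the highest, and that of KO 3 from -0.84 to 0.67. The lowest bin held 46 of the 66 genes (2.32% of its genes), followed by 15, 3, 2 and 0. The genes that met the mirrored rule, at least 2 times higher in both KO libraries, were 32 in number, and those 30 of them with a WT value of at least 10 in every control library had a median GC content of 58.1%. GC content therefore moved with the selection, and its part in the level of any 1 gene was not tested.

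**Figure D4:**
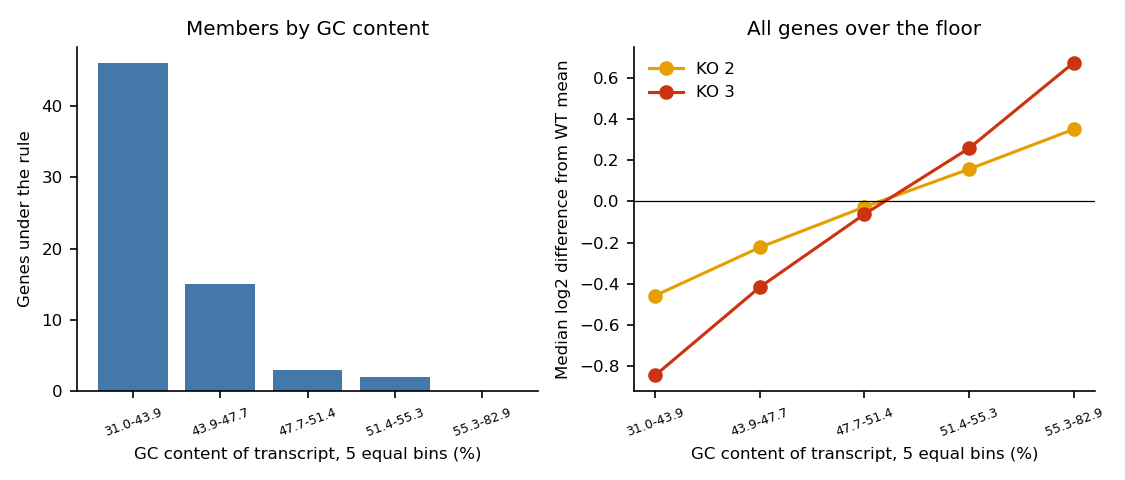
Left, number of the 66 genes in each of 5 equal bins of GC content (horizontal axis, range of transcript GC in %). Right, median log2 difference of each KO library from WT over all genes above the floor in the same bins. The set falls from 46 genes in the lowest bin to 0 in the highest, and both KO lines rise from below 0 to above 0.

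A linear trend on log2 transcript length and GC content was therefore removed from each library and the rule applied again. All 66 genes still had both KO values below all WT values, with a median gap of 1.66 (1.05 to 3.42). The rule was met by 22 genes, of which 15 belonged to the 66. These were Il1b, Il1f9 and Fpr2, the receptors Clec7a, Clec4b2 and Cd101, the extracellular proteins Mmp8, Mgam, Asprv1 and Adamts3, the sensor Nlrp1a, and Bmx, Lnx1, Tbc1d8b and Cmah. By role, 11 of the 28 genes with immune or extracellular roles met the rule again, and 4 of the 38 others, with none of the 10 nuclear genes. These sets did not start alike. In the deposited values the 28 had a median gap of 2.461 and a median GC content of 43.59%, against 2.095 and 40.02% in the 38. The contrast by role can therefore not be told apart from these starting differences. Bmx kept the largest gap (3.42), followed by Asprv1 (2.91), Clec7a (2.63) and Cmah (2.56).

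**Figure D5:**
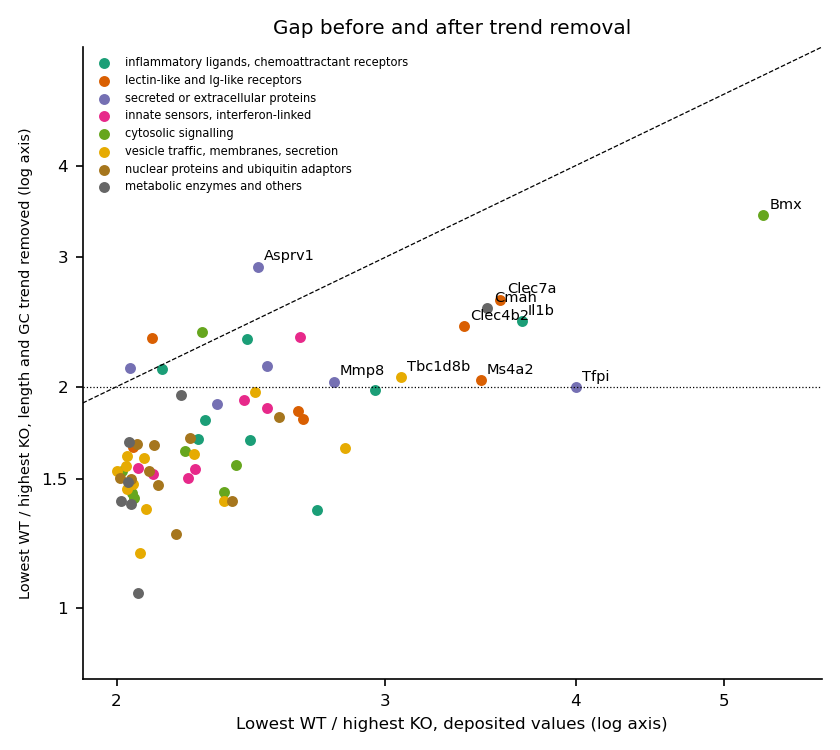
Gap of each of the 66 genes (lowest WT value over highest KO value) in the deposited values (horizontal log axis) and after removal of the trend on length and GC content (vertical log axis), coloured by role. The dashed line marks equal gaps and the dotted line a gap of 2, which 15 genes that also kept the floor reached, Bmx at 3.42 being the highest.

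Neutrophil markers were also lower in the KO libraries. Without Mmp8, the 9 other neutrophil markers took 4.18% to 5.06% of the reads in WT, 3.02% in KO 2 and 1.17% in KO 3, and 7 of the 9 had both KO values below all WT values. The monocyte and macrophage markers took 0.409% to 0.572% in WT, 0.337% in KO 2 and 0.133% in KO 3, and Lyz2 made up most of these reads. Of the 11, 4 had both KO values below all WT values, beside 27.2% of all genes above the floor, while Cd68, C1qb, C1qc and Mrc1 were above all WT values in KO 2. Without Lyz2, a comparison added after the values were seen, the other 10 took 0.0242% to 0.032% in WT, 0.0262% in KO 2 and 0.010% in KO 3. Markers of the HSC itself were at 0.111% to 0.188% in WT, 0.129% in KO 2 and 0.235% in KO 3, with 1 of 13 below all WT values in both KO libraries and 1 above. The one below was Ptprc, the gene of CD45, which was at 4635, 3735 and 4550 in WT and at 2010 and 1271 in KO. The one above was Gata2, a transcription factor of HSCs, mast cells and megakaryocytes, at 4973, 4261 and 2269 in WT and at 5333 and 14815 in KO. Granule markers of myeloid progenitors, other than Clec5a, took 1.7% to 2.58% in WT, 2.4% in KO 2 and 1.48% in KO 3, and 0 of 6 had both KO values below all WT values. Erythroid markers took 0.341% to 0.433% in WT, 0.317% in KO 2 and 0.214% in KO 3. Of these 10, 3 had both KO values below all WT values and 2 had both above. Megakaryocyte markers took 0.0333% to 0.0575% in WT, 0.0636% in KO 2 and 0.145% in KO 3, and 4 of 7 had both KO values above all WT values. The share of all genes above the floor with both KO values above all WT values is not given in this report. Counts of genes above WT, here and in the gene lists, therefore stand without a baseline. The part of these cell markers in the levels of Il1b, Clec7a, Mmp8 and the other myeloid genes was not tested.

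Against lists of genes written for other comparisons of these cells, 26 of the 66 genes were on at least 1 list and 40 on none. The counts below are to be read beside the 0.683% of all genes above the floor that met the rule. The list of immune and adhesion surface proteins held the most, 10 of its 156 genes above the floor (6.41%). It was written by gene symbol and also took in ligands, so these 10 include Il1b, Il1rn and Il1f9. Of the 156, 66 had both KO values below all WT values and 24 had both above. Zinc finger and BTB factors held 4 of 254, among them Zbtbd6, described above as a ubiquitin ligase adaptor. Granule and myeloid genes held 1 of 37, of which 19 (51.4%) had both KO values below all WT values. The HSC program held 0 of 25, ribosomal proteins 0 of 172, the respiratory chain 0 of 97 and mitosis 0 of 43, although 27 of the mitotic genes had both KO values below all WT values. Over all genes above the floor that share was 27.2%. Transcripts marked in HSCs by a fusion of SYNCRIP with the RNA-editing domain of ADAR, an independent readout of RNA contact, included 6 of the 66 (9.09%; Plek, Ms4a2, Ireb2, Cpne3, Tmx3 and Ccl6) and 761 of the 9952 genes above the floor (7.65%).

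Calls by models fitted to all genes are given as background, since the rule and the models used the same values. limma on log2(value + 1) tested 13661 genes and called 0.00732% lower, a single gene (Syncrip), with none of the 66 among them at an adjusted p under 0.05 and a 2-fold change, although all 66 had an unadjusted p under 0.05, as did 3799 genes in all. edgeR's quasi-likelihood test on recovered reads also called 0.00732% lower and none of the 66. DESeq2 called 562 of 11837 genes lower (4.75%), among them all 66. The median log2 difference between KO and WT was -1.70 over the 66 genes and -0.03 over all genes above the floor. With exact Poisson 95% bounds on the reads, which cover counting error only, all 66 genes kept the lower bound of their lowest WT value above the upper bound of their highest KO value, and 16 kept it at least 2 times above. The rule had required the same values to lie at least 2 times apart, so this separation largely follows from the selection and gives it no support.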

How the data were processed

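Per the labels, RNA of 5 libraries was sequenced, and the submitters' processing notes name STAR, featureCounts, DESeq2 and the build mm10 without versions or strand setting. The authors deposited a signal table of 24046 gene symbols whose values are reads scaled by 1 factor per library. In each library 100% of the values were whole multiples of 1 step, within 0.01 reads, and dividing by the step gave back the reads. A second table of log2 fold changes and p-values from the authors' own comparison was not used. The depths are given with the report, and intervals and floors cover counting error only, since PCR copies were not marked.

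The 66 genes were found by the rule on the deposited signal, without a test. The genes, the lists and the comparisons were chosen with earlier results of these data known. The text names the 15 genes with the largest gap, the 10 with the highest WT mean, list members, those nearest the limits, the widest splits between KO libraries and the widest and tightest WT spreads, and the genes set aside. Other members were named afterwards, to account for the set, and 1 member, which is counted in every total, is not reported here by name.

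Gene models, transcript length and GC content came from GENCODE M21 (GRCm38, the longest transcript per gene), matched by symbol or synonym, and sequence sharing was counted in 50-base words. Promoters came from RefSeq (GRCm38.p6). Genes that reached a value of 10 in 2 or more libraries were fitted with limma (version 3.58.1, trend) on log2(value + 1) with Benjamini-Hochberg adjustment, and the recovered reads with edgeR (version 4.0.16) and DESeq2 (version 1.42.0) in R (version 4.3.3). The limma step was tested on simulated data. Alternatives covered scaling, limits, the pseudocount, the filter, the tool, a replicate block, each library left out and a trend on length and GC content. Genes on chromosome 18 are named without sequence. No protein sequences were used here.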

Additional observations from a re-analysis of the deposited data

How the results depend on the processing

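The number of genes under the rule was 66 and lay between 48 and 83 with equal library totals (65), TMM scaling (68), upper-quartile scaling (58) and floors of 50 or 200. A gap of 1.5 times gave 380 genes and a gap of 3 times 8, the 95% counting bounds 16, the mirrored rule 32, and removal of the trend on length and GC content 22. Leaving out 1 library gave 80 to 890 genes: 104 without WT 1, 200 without WT 2 and 890 without KO 2, so KO 2 limited the set most. All 66 were among them each time, which was certain, since dropping a library can only relax the rule. The median log2 difference of the 66 genes was -1.70 and ran from -1.66 to -1.72 over pseudocounts and scalings, was -1.18 with the trend removed, and ran from -2.02 (without KO 2) to -1.44 (without KO 3) over the libraries left out. limma called 0 of the 66, and 0 to 64 when 1 library was left out. The 64 were without KO 2, where 2451 genes were called and the lone KO 3 was assumed to vary like WT. DESeq2 called 66 of them. With a replicate block limma called 1 of the 66 and 6 genes in all. Same-numbered libraries deviated with correlations of -0.0594 and -0.183, and the labels tie no number to a shared animal or day. The differences in GC content and length from genes above the floor stayed within their error with another comparison set or transcript. The KO to WT ratios of the 66 genes depended on which KO library was used: with 1 KO library left out they moved beyond the WT spread in 81 of 132 recalculations, over 41 genes, and by over 1.5 times in 18 genes. Under the other settings they did so in 0 of 330, and 0 reversed in either case. The causes were not tested.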
